A study of Mus musculus with 23 samples.

Results

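Chromatin accessibility was described at 1282 regions of the mouse genome that were bound by NR5A2, were classed as accessible by the authors, and lay deep inside protein-coding genes. A region was taken when it was on an autosome, when its midpoint was inside the span of a protein-coding gene of the RefSeq gene table (GRCm38.p6), and when it was at least 20 kb from the ends of every protein-coding gene. These gene-interior regions were 7.56% of the 16958 NR5A2-bound regions in the deposited table (mm10) and 16.2% of the 7938 accessible autosomal ones. The embryos were mouse 8-cell embryos, and openness of chromatin was measured by ATAC-seq, which tags DNA that a transposase can reach. In the maternal-zygotic (mz) series, 8 single embryos labelled as heterozygotes (mz_NrHet) and 13 labelled as knockouts of maternal and zygotic Nr5a2 (mz_NrKO) were processed straight after collection. In the inducible series (iNrKO), embryos were dissected 30 h after hCG, at the early 2-cell stage, and cultured for 45 h. There, 1 pool had 750 nM 4-hydroxytamoxifen for the first 24 h, and 1 pool did not and is labelled Nrpp. The labels give neither the strain, nor the Cre driver, nor the maternal genotype of the heterozygotes. No pool had tamoxifen without the deletion, so in this series the drug and the loss of Nr5a2 cannot be told apart.

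NR5A2, also called LRH-1, belongs to the orphan nuclear receptors and contacts DNA as a monomer through its zinc fingers and an adjoining stretch that contacts bases to the left of the receptor half-site. It is known in early mouse embryos as a regulator of pluripotency genes such as Pou5f1, and in adult liver as a regulator of bile acid synthesis. Regions inside genes and far from their ends can hold enhancers, internal start sites and binding sites with no known role, and a gene that holds such a region is not shown to be regulated by it. Host genes are named below by position only.

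The sequences below come from 4 gene-interior regions that overlap the window around an internal transcription start (250 bases before to 50 after) in the RefSeq promoter table (GRCm38.p6). They were picked because the bases covered hold a stretch marked in capitals, so that this stretch can be read beside the accessibility. A marked stretch is not shown to be the site that NR5A2 binds. Regions in Gse1, Kcnq1, Shroom3 and Tns1 also overlap such a window. They held neither word searched in the bases covered and are not shown. The words searched, on both strands, were CAAGGTCA and CAAGGCCA, the 8-letter cores of TCAAGGTCA and TCAAGGCCA. All are written on the plus strand, 5′ to 3′. Capitals mark matches to either 8-letter word and the 9 bases at the authors' motif-recentred summit, so on the plus strand a site of the other strand reads as its reverse complement.
Fam53b, chr7:132776917-132777076: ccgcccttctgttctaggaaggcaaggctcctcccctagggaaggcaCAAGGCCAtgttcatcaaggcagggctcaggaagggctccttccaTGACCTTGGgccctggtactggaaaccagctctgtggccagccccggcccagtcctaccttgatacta
Ptprf, chr4:118260506-118260634: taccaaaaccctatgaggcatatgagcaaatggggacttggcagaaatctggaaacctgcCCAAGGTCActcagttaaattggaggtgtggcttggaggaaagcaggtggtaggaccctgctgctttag
Plekha7, chr7:116286938-116287066: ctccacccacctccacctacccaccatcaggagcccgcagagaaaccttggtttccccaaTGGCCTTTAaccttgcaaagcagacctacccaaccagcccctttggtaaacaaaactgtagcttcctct
Vps53, chr11:76154218-76154294: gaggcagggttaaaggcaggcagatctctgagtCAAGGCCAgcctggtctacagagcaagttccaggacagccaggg
In Fam53b the bases lie before an internal start of Fam53b itself. In the other hosts the starts are those of long non-coding genes. The bases lie before a start of Gm52705 in Ptprf and around starts of Gm44867 in Plekha7. In Vps53 they span a start of Gm46252, and the capital word lies just after it. The 9 capital bases of Plekha7 hold the AAGG core on the minus strand but neither 8-letter word, and the recentred summit of the Vps53 region lies outside the bases shown.

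Of 32851 RefSeq start windows of 300 bases, 3.92% held either 8-letter word and 1.01% held either 9-letter word. Over all NR5A2-bound regions whose recentred summit fell in the RefSeq windows, 95 of 115 (82.6%) held AAGG at a fixed offset from that summit. The gene-interior regions among them were 3, and all 3 held it, namely those of Fam53b, Ptprf and Plekha7. The recentred summit of the Gse1 region lay near the end of its covered bases. These end before the stretch at that summit is complete, so whether it holds AAGG could not be read. That region is not among the 3.

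Accessibility at these sequences is given in RPKM, a read density normalised to depth by the authors, with 1 merged value per group. The Vps53 region had 6.46 RPKM in heterozygotes against 1.43 RPKM in mz knockouts. It had 5.55 RPKM without tamoxifen and 1.36 RPKM with it. Its ratio of knockout to control was 0.222 in the mz libraries (95% counting interval 0.0516 to 0.749), which did not pass (exact binomial test, adjusted p = 0.146). In the pools it fell, with a ratio of 0.245 (0.0981 to 0.540, exact binomial test, adjusted p = 0.00544). That call did not hold under either scaling of the columns described below. Vps53 encodes a subunit of a complex that tethers endosome-derived vesicles to the Golgi. The Plekha7 region went from 15.3 to 6.46 RPKM and from 5.06 to 4.42 RPKM, the Ptprf region from 4.11 to 1.43 RPKM and from 2.77 to 1.70 RPKM, and the Fam53b region from 4.11 to 2.87 RPKM and from 2.12 to 1.70 RPKM. These 3 were lower in both knockout libraries and passed the test in neither series. A region before an internal start of Shroom3, an actin-binding regulator of cell shape, held neither word in the bases covered, and it had 17.6 and 14.7 RPKM in the mz series and 4.57 and 5.28 RPKM in the inducible series.

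The regions lay in 959 host genes, of which the shortest spanned 41.6 kb, the median 135 kb and the longest 2241 kb. In 721 cases the region was alone in its host, and 10 hosts held 5 or more regions, 56 regions in all. Only 12 regions were within 1 kb of any RefSeq start on their chromosome, among the 1237 for which the table lists one, and their median distance to a start was 37.4 kb. The gene table gives no exons, so exonic and intronic regions were not separated. The authors' recentring moved the summit onto a motif in 1162 of the 1282 regions (90.6%), against 89.3% of all regions and 69.0% of the accessible regions at gene ends (1 kb or nearer). The median CUT&RUN signal for NR5A2, from an earlier study, was 4.96 RPKM against 4.15 RPKM over all regions and 5.01 RPKM over accessible autosomal ones.

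Reads were few. The median gene-interior region held 6 reads in each mz library, 20 reads in the untreated pool and 12 reads in the treated one. The heterozygous library had no read at 45 of the 1282 regions although all were classed as accessible, the mz knockout library none at 37, the untreated pool none at 0 and the treated pool none at 3. A value of 0 allows up to 3 reads, which is 1.76 and 1.08 RPKM in the mz control and knockout libraries and 0.490 and 0.510 RPKM in the pools without and with tamoxifen. All tests and intervals below compare merged libraries, not conditions, and cover counting error only, because no values of single embryos were in the table.

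Accessibility at the gene-interior regions was lower in both knockout libraries. In the mz series the mean went from 4.70 RPKM to 2.94 RPKM, and the ratio of summed RPKM was 0.627 (0.610 to 0.645). With tamoxifen it went from 3.63 to 2.37 RPKM, a ratio of 0.654 (0.641 to 0.666). The same ratios over all 16958 regions were 0.668 and 0.694, so the gene-interior regions were at 0.938 and 0.942 of the ratio shared by all NR5A2-bound regions. The median log2 ratio per region, on the log2(RPKM + 1) scale, was −0.48 in each series, and over all regions it was −0.32 and −0.35. Over accessible autosomal regions it was −0.48 and −0.42, and their summed ratios were 0.653 and 0.696. Much of the distance from all regions is thus found in accessible regions as a whole. The knockout value was below its control at 951 regions in the mz series, at 1053 in the inducible series, and at 801 (62.5%) in both. Of all NR5A2-bound regions 50.5% were below control in both, and of the accessible autosomal ones 62.3%.

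Calls rest on two-sided exact binomial tests of the reads, adjusted by Benjamini-Hochberg across the 16958 regions of the table. By them 43 gene-interior regions (3.35%) fell in the mz knockout library, where 1.73% of all regions and 3.12% of accessible autosomal regions did. None rose, against 0.0236% of all regions and 0.0504% of accessible autosomal ones, and 6 (0.468%) were higher at an unadjusted p under 0.05, where 0.708% of all regions were. With tamoxifen 147 (11.5%) fell, beside 6.37% of all regions and 10.2% of accessible autosomal ones, and 1 rose, beside 0.0767% and 0.0882%. The share of gene-interior regions called was thus near that of accessible regions as a whole in both series. With no read left in the knockout, a region needed 8 control reads to pass in the mz series and 10 in the inducible one. Only 525 of the 1282 regions had that many in heterozygotes, against 1189 in the untreated pool. The authors' own class gave 630 gene-interior regions as losing accessibility, 540 as unchanged and 112 as gaining (49.1% losing, against 45.8% of accessible autosomal regions).

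Much of the loss was shared by all NR5A2-bound regions, and 2 scalings of the columns show what remained. With the median log2 ratio of all regions set to 0, 7 gene-interior regions fell in mz (0.307% of all regions did) and 34 with tamoxifen (1.17%), while none rose in mz (0.0413%) and 1 with tamoxifen (0.13%). With the summed ratio of all regions set to 1, 2 fell in mz (0.0826%) and 14 with tamoxifen (0.46%), and 1 rose in mz, a region of Sfi1 (0.0767%), and 4 with tamoxifen (0.218%). All that fell under a scaling had also fallen as deposited. As deposited but at an adjusted p under 0.01, 8 fell in mz (0.389% of all regions) and 54 with tamoxifen (2.03%).

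**Figure D1:**
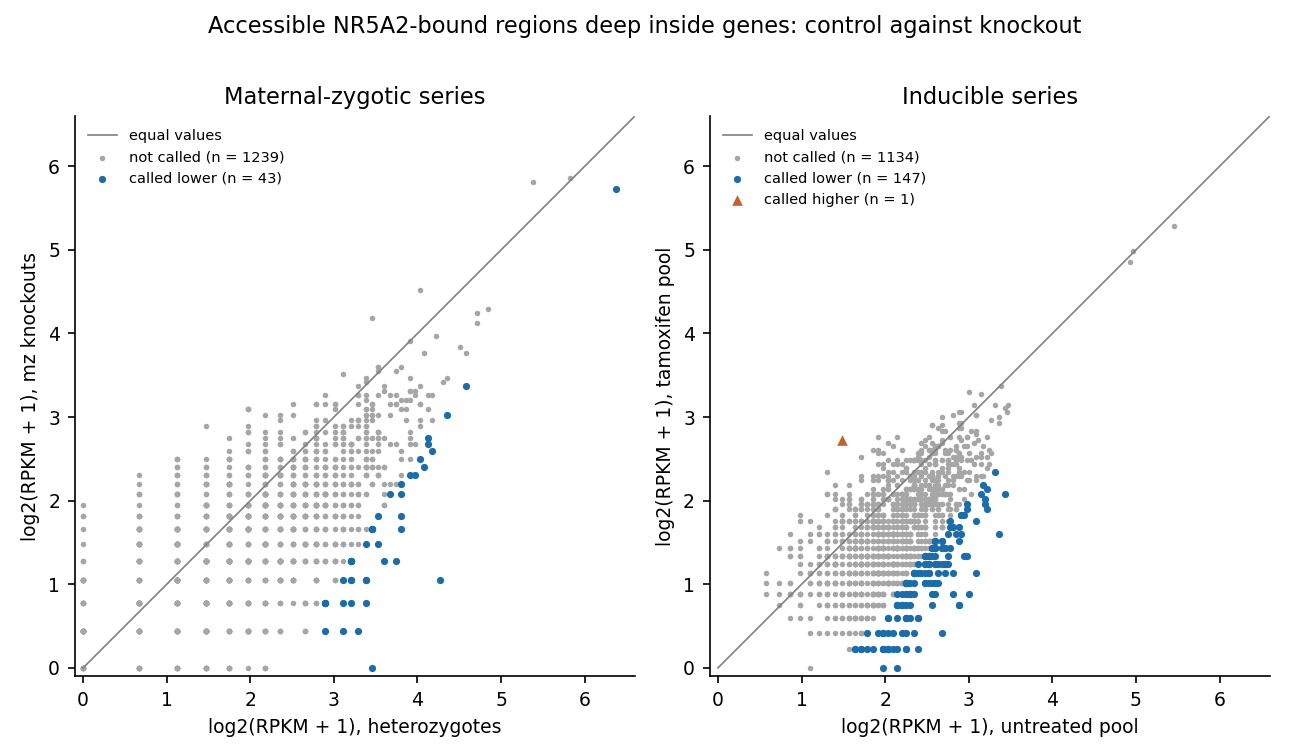
Accessibility of the 1282 gene-interior regions, each point 1 or more regions with the same values, as log2(RPKM + 1) in the control library (x axis) and the knockout library (y axis) of the mz series (left) and the inducible series (right). Most points lie under the line of equal values, blue points are the 43 and 147 regions called lower, and the triangle is the region of Cdh13 called higher.

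In the mz series the strongest loss by p was at a region in Dnajc11, which encodes a mitochondrial J-domain protein (chr4:151958064-151958322). It fell from 18.2 to 1.08 RPKM, a ratio of 0.0591 (0.0116 to 0.189, exact binomial test, adjusted p = 1.12e-06), while the inducible pools had 4.08 and 2.38 RPKM there. A region in Irak2, a kinase of Toll-like and interleukin receptor signalling (chr6:113671387-113671598), had 17 reads, or 9.99 RPKM, in heterozygotes and no read in mz knockouts. Taking the 1.08 RPKM of 3 reads for the empty library, it was 9.28-fold lower, a value without the counting error of the control (exact binomial test, adjusted p = 0.000106). The inducible pools had 2.94 and 0.851 RPKM. With the summed ratio of all regions set to 1, the Dnajc11 and Irak2 regions were the 2 that passed in the mz series. With the median log2 ratio set to 0, 7 passed, those and the regions in Ube2u, Ash1l, Mtus1, Dip2b and Spag17.

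A region in Ash1l, a histone methyltransferase gene (chr3:89055142-89055438), fell from 12.3 to 1.43 RPKM in mz knockouts (exact binomial test, adjusted p = 0.00195). A region in Dip2b (chr15:100175467-100175662) fell from 11.2 to 1.43 RPKM (adjusted p = 0.00492), and one in Dnm2, the gene of the membrane-severing GTPase dynamin 2 (chr9:21479826-21480264), fell from 9.40 to 1.08 RPKM (adjusted p = 0.0112, all by the exact binomial test). At these 3 regions the inducible pools differed less, with 2.94 and 2.04 RPKM in Ash1l, 3.10 and 2.21 RPKM in Dip2b, and 3.43 and 3.57 RPKM in Dnm2. A region in Dscaml1, a neuronal cell adhesion gene (chr9:45474146-45474311), fell from 9.40 to 1.08 RPKM (exact binomial test, adjusted p = 0.0112) and had 2.29 and 0.510 RPKM in the pools. The other 4 of the 10 strongest mz losses, in Ube2u, Mtus1, Bcas3 and Spag17, fell in both series and are given below.

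The strongest losses by p in the inducible series left little signal in the treated pool. A region in Fat1, an atypical cadherin gene (chr8:44993473-44993725), fell from 6.37 to 0.681 RPKM, a ratio of 0.107 (0.0278 to 0.296, exact binomial test, adjusted p = 5.83e-05), and the mz libraries had 7.05 and 2.15 RPKM. A region in Zbtb7c, which encodes a BTB zinc finger protein, fell from 7.02 to 0.851 RPKM (exact binomial test, adjusted p = 5.83e-05), with 4.11 and 1.43 RPKM in the mz libraries. Both were lower in both knockouts and passed in the inducible series alone.

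A region in Ptpn3, a tyrosine phosphatase gene (chr4:57273512-57273854), fell from 4.24 RPKM to the 0.170 RPKM of a single read (ratio 0.0401, interval 0.000978 to 0.244, exact binomial test, adjusted p = 0.000236). A region in Immp2l, a mitochondrial inner membrane peptidase gene (chr12:41729905-41730131), fell from 6.04 to 0.851 RPKM (exact binomial test, adjusted p = 0.000253), and the mz libraries had 8.22 and 4.66 RPKM. A region in Prkce, the gene of protein kinase C epsilon (chr17:86525557-86525952), had 21 reads, or 3.43 RPKM, in the untreated pool and none in the treated pool. Taking the 0.510 RPKM of 3 reads for the empty pool, that is 6.71-fold lower, again without the counting error of the control (exact binomial test, adjusted p = 0.000376). These regions lay 65.4 kb, 226 kb and 132 kb from the nearest gene end. A region in Rere, a transcriptional corepressor gene (chr4:150512065-150512469), fell from 3.75 to 0.170 RPKM (exact binomial test, adjusted p = 0.000731) but had 0.587 and 1.43 RPKM, 1 and 4 reads, in the mz libraries. A region in Eepd1 tied with it in both pools and had 0 and 2 reads in the mz libraries.

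The 2 series overlapped in 11 regions that fell in both, which is 25.6% of the mz calls and 7.48% of the inducible calls. Over all regions 70 fell in both (0.413% of regions), beside 293 mz calls and 1081 inducible calls. Over accessible autosomal regions 62 did (0.781% of regions), beside 248 and 808 calls. The overlap among gene-interior calls was thus near that among accessible regions as a whole. The libraries of the 2 series are separate. The 43 regions called in the mz series had an inducible ratio of 0.585 (0.537 to 0.637), and 39 of them (90.7%) were below control there, beside 82.1% of all gene-interior regions. The 147 regions called in the inducible series had an mz ratio of 0.456 (0.418 to 0.499), with 128 (87.1%) below control, beside 74.2% of all gene-interior regions. The 1103 regions that fell in neither had ratios of 0.682 and 0.726, values that leaving out the called regions raises by construction.

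Spag17, which encodes a protein of the ciliary axoneme, held a region (chr3:100025628-100025870, 112 kb from a gene end) that fell from 7.64 to 0.359 RPKM (ratio 0.0470, interval 0.00111 to 0.313, exact binomial test, adjusted p = 0.00790) and from 6.37 to 0.681 RPKM (0.107, interval 0.0278 to 0.296, adjusted p = 5.83e-05). In Bcas3 a region 222 kb from a gene end (chr11:85603969-85604254) fell from 12.9 to 2.15 RPKM (exact binomial test, adjusted p = 0.00492) and from 9.30 to 2.04 RPKM (adjusted p = 7.23e-05). In Dpp6, which encodes an auxiliary subunit of potassium channels, a region (chr5:27402922-27403158) fell from 8.22 to 0.717 RPKM (exact binomial test, adjusted p = 0.0119) and from 7.51 to 1.19 RPKM (adjusted p = 6.50e-05). At each of these 3 regions both knockout values were below both control values.

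In Ube2u, a ubiquitin-conjugating enzyme gene (chr4:100499200-100499672), a region fell from 8.81 to 0.359 RPKM (exact binomial test, adjusted p = 0.00254) and from 4.08 to 0.340 RPKM (adjusted p = 0.00105). In Mtus1, which encodes a microtubule-associated protein (chr8:41086897-41087168), a region fell from 9.40 to 0.717 RPKM (exact binomial test, adjusted p = 0.00433) and from 3.92 to 0.851 RPKM (adjusted p = 0.0177). In Cux1, a homeodomain transcription factor gene (chr5:136540139-136540372), a region fell from 6.46 to 0.717 RPKM (exact binomial test, adjusted p = 0.0475) and from 3.59 to 0.340 RPKM (adjusted p = 0.00351). In all 3, as in Spag17, Bcas3 and Dpp6, the mz control was above the inducible control and both knockout values were below both control values. The remainders in Ube2u, Mtus1 and Cux1 were close to the value of a few reads.

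The remaining 5 were in Tmem178b, in Pik3cb (a catalytic subunit of phosphoinositide 3-kinase), in Rab11fip4 (an effector of the recycling GTPase Rab11), in Nacc2 (a BTB-domain transcriptional repressor) and in Wdr70. In the mz series they went from between 8.22 and 16.4 RPKM to between 1.08 and 5.74 RPKM, with adjusted p from 0.0241 to 0.0496 by the exact binomial test. With tamoxifen they went from between 4.73 and 6.86 RPKM to between 1.02 and 2.89 RPKM, with adjusted p from 0.00278 to 0.0424 (exact binomial test). Across the 11 regions the summed ratios were 0.169 (0.122 to 0.232) and 0.221 (0.172 to 0.281), values that the choice of these regions sets. With the median log2 ratio of all regions set to 0, 2 regions (Ube2u and Spag17) still fell in both series, and with the summed ratio of all regions set to 1 none did.

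**Figure D2:**
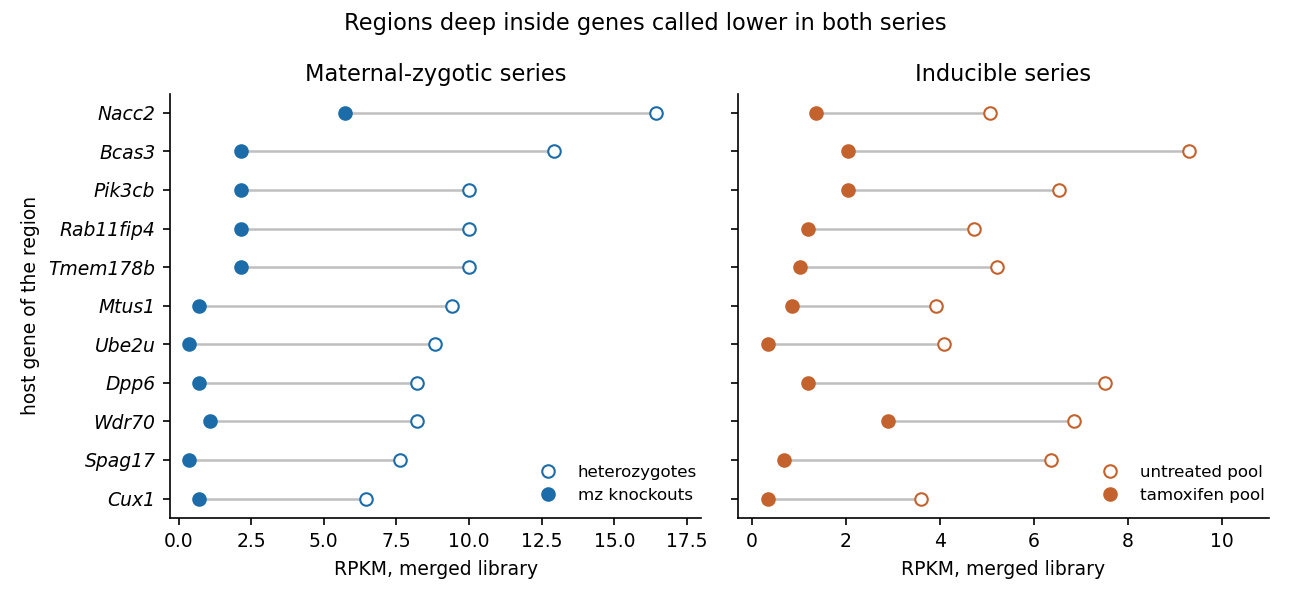
RPKM in the merged control library (open circles) and the merged knockout library (filled circles) of the mz series (left) and the inducible series (right) for the 11 gene-interior regions that fell in both, ordered by the heterozygous value. The heterozygous values run from 6.46 RPKM in Cux1 to 16.4 RPKM in Nacc2, and every filled circle lies left of its open circle.

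The only region that rose was in Cdh13, which encodes a cadherin anchored in the membrane by a lipid (chr8:119273451-119274039, 51.2 kb from a gene end). Without tamoxifen it had 1.80 RPKM, and with it 5.62 RPKM, a ratio of 3.13 (1.54 to 6.86, exact binomial test, adjusted p = 0.0206). The mz libraries had 2.35 and 3.95 RPKM, 4 and 11 reads, a ratio of 1.68 (0.497 to 7.23) that did not pass. When the summed ratio of all regions was set to 1, regions in Tle4, a Groucho-type corepressor gene, in Znrf3, a ubiquitin ligase gene that restrains Wnt signalling, and in Sfi1 were called higher as well in the inducible series. The Tle4 region had 2.77 and 5.79 RPKM and the Znrf3 region 1.47 and 4.08 RPKM as deposited. The Znrf3 region had 4.11 and 1.43 RPKM in the mz series, in the other direction.

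Whether the ratios of the 2 series differed was tested region by region from the exact conditional (noncentral hypergeometric) distribution of the reads. None of the 1282 regions passed after adjustment, and 3 of all regions (0.0177%) did. At an unadjusted p under 0.05 there were 77 gene-interior regions (6.01%), where 4.41% of all regions reached it. The smallest adjusted p was 0.141, and that region was in Gcnt2, a glycosyltransferase gene (chr13:40906749-40906916), with 2.94 and 7.53 RPKM in the mz series and 3.75 and 0.510 RPKM in the inducible series. The regions of Dnm2, Ash1l and Dip2b above, called in the mz series alone, are therefore not shown to respond differently in the 2 series.

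The place of a bound region relative to genes went with its ratio. Accessible regions at gene ends, with a midpoint no more than 1 kb away, numbered 730 and had ratios of 0.770 (0.752 to 0.789) in mz and 0.827 (0.811 to 0.843) with tamoxifen. Gene-interior regions were below them by a log2 difference of −0.30 (−0.35 to −0.24, Fisher's exact test on summed reads, p = 1.88e-28) and −0.34 (−0.38 to −0.30, p = 2.01e-66). In contrast, the 1532 accessible regions outside genes and at least 20 kb from every gene end, here called gene deserts, had ratios of 0.615 (0.599 to 0.630) and 0.658 (0.647 to 0.669). The log2 difference to them was 0.03 (−0.02 to 0.08, Fisher's exact test, p = 0.287) and −0.01 (−0.05 to 0.03, p = 0.599), so no difference from deserts was detected in the sums. These intervals cover counting error only and do not bound differences within a distance bin. At 100 kb or more the intervals of the 2 classes did not overlap. There gene interiors were higher in mz (0.655 against 0.568) and lower with tamoxifen (0.570 against 0.647), which was not tested. Regions inside genes but nearer an end (2535) were in between, at 0.656 and 0.702. The classes also differed in level: the mean heterozygous value was 9.55 RPKM at gene ends, 4.68 RPKM in deserts and 4.70 RPKM in gene interiors, and the part of that difference in the ratios was not tested. With the summed ratio of all regions set to 1, gene ends came out above 1 (1.15 and 1.19) and gene interiors below 1 (0.938 and 0.942). With the median set to 0, gene ends were above 1 with tamoxifen alone (0.962 and 1.05).

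**Figure D3:**
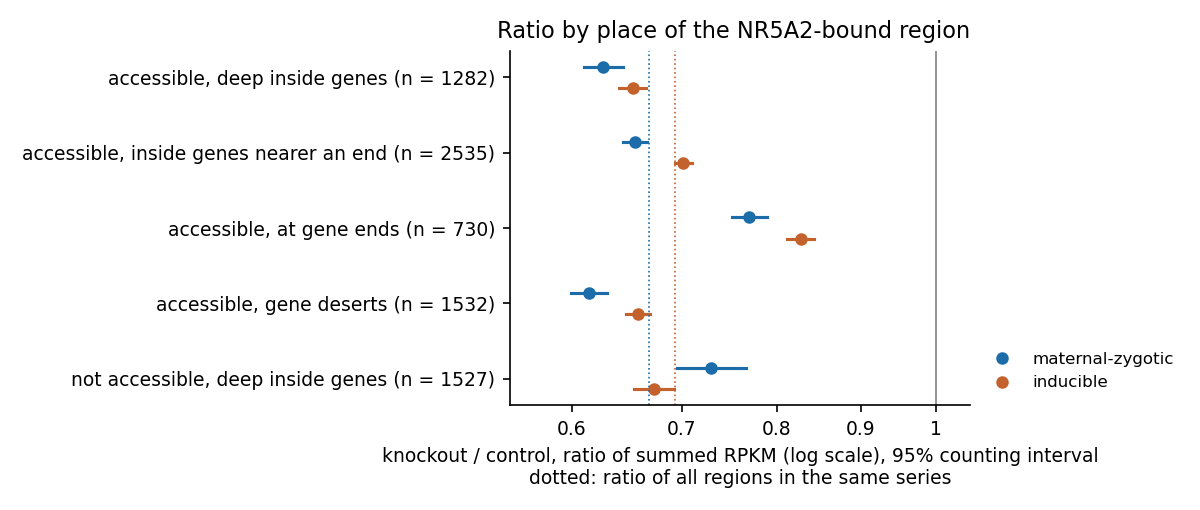
Ratio of summed RPKM, knockout over control, on a log axis, with 95% counting intervals, for accessible regions deep inside genes and 4 other classes of NR5A2-bound regions, in the mz series (blue) and the inducible series (orange). Gene interiors (0.627 and 0.654) lie with deserts and left of gene ends (0.770 and 0.827).

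Regions at the same depth in genes that the authors class as not accessible numbered 1527. Their mz means were 1.16 and 0.85 RPKM, with a ratio of 0.730 (0.695 to 0.766), and the means of the pools 1.37 and 0.92 RPKM, with a ratio of 0.673 (0.655 to 0.692). Their median CUT&RUN signal was 3.36 RPKM, under the 4.96 RPKM of the accessible ones. Of these regions 0.262% fell in the mz series and 2.49% in the inducible series.

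Among gene-interior regions, those farthest from a gene end had the lowest ratio in the inducible series. The 823 regions at 20 to 50 kb had a ratio of 0.673 (0.658 to 0.689), the 278 at 50 to 100 kb 0.647 (0.621 to 0.673), and the 181 at 100 kb or more 0.570 (0.540 to 0.601). In the mz series the same bins had 0.623, 0.625 and 0.655 (0.605 to 0.708), with no such order. Desert regions at 100 kb or more had 0.568 (0.538 to 0.600) in mz and 0.647 (0.625 to 0.669) with tamoxifen, the lowest of the desert bins in each. The orders of the bins were not tested. Without the hosts that held 5 or more regions, the most distant gene-interior regions had 0.590 in the inducible series, and without the hosts of the synaptic and neuronal list 0.591.

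**Figure D4:**
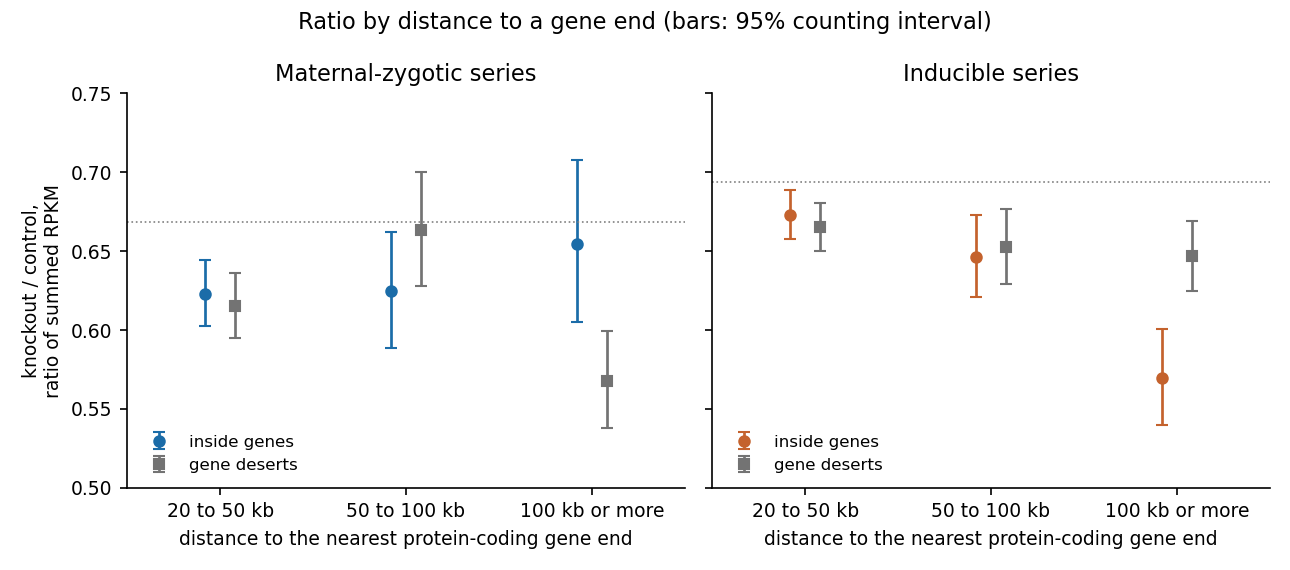
Ratio of summed RPKM, knockout over control, by distance to the nearest protein-coding gene end for gene-interior regions (circles) and gene deserts (squares), with 95% counting intervals, in the mz series (left) and the inducible series (right), on an axis that starts at 0.5. The dotted line is the ratio of all regions, and the lowest circle is the inducible ratio of 0.570 at 100 kb or more.

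Gene-interior regions of weak and strong NR5A2 binding had similar mz ratios of summed RPKM. All regions were divided into 5 equal groups by CUT&RUN signal, and the mz ratio of the gene-interior ones was 0.640 (0.584 to 0.700) in the weakest and 0.638 (0.610 to 0.667) in the strongest group, with values from 0.617 to 0.620 between. Other accessible autosomal regions went from 0.710 (0.684 to 0.737) to 0.635 (0.624 to 0.647). With tamoxifen the gene-interior regions had 0.704 (0.663 to 0.749) in the weakest group and 0.644 to 0.654 in the others, and other accessible regions went from 0.761 to 0.680. The mean heterozygous level was 4.04 RPKM in the weakest and 5.92 RPKM in the strongest gene-interior group. The median mz log2 ratio per region was −0.35 in the weakest and −0.53 in the strongest gene-interior group, and −0.35 and −0.55 in other accessible regions. The similar mz ratios thus held for sums and not for medians. The sums of the strongest gene-interior group include 3 Sfi1 regions of very high signal, described below. Those held 303 of its 3756 reads in heterozygotes and 458 of its 3923 reads in mz knockouts. The ratios of this group without them were not computed. The share that fell was 2.92% and 5.63% in mz and 8.03% and 16.1% with tamoxifen. In other accessible regions it was 0.734% and 4.51%, and 5.43% and 12.2%. These are descriptions, and the differences between the trends were not tested.

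Regions whose summit was recentred on a motif (1162) had ratios of 0.622 (0.604 to 0.641) and 0.638 (0.625 to 0.651). The 120 that were not recentred had 0.653 (0.609 to 0.700) and 0.764 (0.726 to 0.804), or 0.589 and 0.726 without 3 regions of very high signal in Sfi1. The intervals of recentred and other regions thus stayed apart in the inducible series and overlapped in the mz series. The ATAC summit lay a median of 97 bp from the recentred summit. Regions with both within 50 bp (373) had 0.636 and 0.648, and those more than 200 bp apart (418) had 0.657 and 0.673. For the 991 regions whose host strand was known, the ratios were 0.616 and 0.669 nearer the start of the host and 0.636 and 0.638 nearer its other end.

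The 3 Sfi1 regions stood apart in level. Sfi1 encodes a centrosomal protein that binds centrin. Its regions on chromosome 11 had 81.7, 55.8 and 40.5 RPKM in heterozygotes against 52.0, 57.0 and 55.2 RPKM in mz knockouts. Without tamoxifen they had 42.9, 29.5 and 30.2 RPKM, and with it 37.9, 27.9 and 30.6 RPKM. Their summed ratios were 0.923 (0.796 to 1.07) and 0.940 (0.837 to 1.05). They were the 3 gene-interior regions with a mean above 20 RPKM, none had a recentred summit, and without them the gene-interior ratios were 0.618 and 0.647. One of the 3 (chr11:3153897-3154064) fell in the mz series (ratio 0.637, interval 0.501 to 0.810, exact binomial test, adjusted p = 0.0214). That call did not hold under either scaling. Whether a mapping artefact contributes to the high Sfi1 signal was not tested, because that needs the reads.

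The 10 hosts with 5 or more regions had summed ratios of 0.535 (0.468 to 0.611) and 0.563 (0.513 to 0.617) over their 56 regions, against 0.629 and 0.651 for regions alone in their host. Auts2 and Mtus1 held 7 each. Auts2, a neurodevelopmental gene whose product joins Polycomb complexes, had 2.01 and 1.54 RPKM on average in the mz series (ratio 0.763, interval 0.431 to 1.36) and 3.50 and 1.29 RPKM in the inducible series (0.368, interval 0.264 to 0.507). All 7 Auts2 regions were below control in the inducible series and 3 in the mz series, where they had 24 and 30 reads in all. Its regions lay 120 to 471 kb from a gene end. The 2 that fell in the inducible series went from 4.41 to 1.19 RPKM (chr5:131570208-131571273, exact binomial test, adjusted p = 0.0238) and from 3.92 to 0.851 RPKM (chr5:131674264-131674605, adjusted p = 0.0177).

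Mtus1 was below control at all 7 regions in both series, with means of 6.55 and 2.82 RPKM (ratio 0.430, interval 0.299 to 0.616) and of 5.25 and 2.94 RPKM (0.561, interval 0.446 to 0.702). They lie 21.0 to 55.4 kb from a gene end, and 1 of them fell in each series, the one given above.

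Macf1, the gene of a protein that links microtubules to actin, had 5 regions with means of 6.93 and 2.73 RPKM (ratio 0.393, interval 0.254 to 0.601) and 3.53 and 2.04 RPKM (0.579, interval 0.415 to 0.801), and none passed the test alone. Wwox, a WW-domain oxidoreductase gene, had 5 regions with ratios of 0.685 (0.440 to 1.07) and 0.463 (0.338 to 0.627), and a region 317 kb from a gene end fell from 8.16 to 2.89 RPKM in the inducible series (chr8:115035834-115036162, exact binomial test, adjusted p = 0.00713). Sipa1l3, a gene of a Rap GTPase-activating protein, had 6 regions with ratios of 0.486 (0.350 to 0.672) and 0.866 (0.665 to 1.13). A Sipa1l3 region fell from 17.0 to 5.02 RPKM in mz knockouts (chr7:29469701-29469955, exact binomial test, adjusted p = 0.0172) and had 4.90 and 5.10 RPKM in the pools. Rere, Dysf, Btbd9, Zfp609 and Sil1 had mz ratios from 0.552 to 0.687 and inducible ratios from 0.449 to 0.689. When scaled to a summed ratio of 1 for all regions, Auts2, Wwox and Sil1 came out above 1 in the mz series (1.14, 1.02 and 1.03) and Sipa1l3 in the inducible series (1.25).

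Host genes were then grouped by function. A list is described by the regions of its genes that meet the position rule, and the ratios of all regions in the same series, 0.668 and 0.694, are the values to set beside each. Beside the counts that fell stand 1.73% and 6.37% of all regions, and 3.35% and 11.5% of gene-interior ones. No list was tested against other regions. Genes of cell adhesion and polarity, which act in compaction of the 8-cell embryo, held 19 regions in 13 of 58 genes. Their ratios were 0.464 (0.354 to 0.605) and 0.545 (0.458 to 0.647), and the median log2 ratios were −0.89 and −0.85. In mz 1 fell (5.26%) and with tamoxifen 5 fell (26.3%) and 1 (5.26%), that of Cdh13, rose, beside 0.0767% of all regions. Pard3, a scaffold of the apical polarity complex, held 3 regions on chromosome 8. They had 6.46, 9.99 and 9.40 RPKM in heterozygotes against 0.717, 5.02 and 3.95 RPKM in mz knockouts. Without tamoxifen they had 3.26, 4.24 and 4.08 RPKM, and with it 1.36, 0.510 and 1.70 RPKM. Every Pard3 value was lower in the knockout. The first fell in the mz series (chr8:127100086-127100735, exact binomial test, adjusted p = 0.0475) and the second in the inducible series (chr8:127125868-127126077, adjusted p = 0.00199).

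Prkca, the gene of a conventional protein kinase C, held 2 regions that both fell in the inducible series, from 3.75 to 0.681 RPKM (exact binomial test, adjusted p = 0.0135) and from 4.90 to 1.70 RPKM (adjusted p = 0.0424). These 2 regions lie close together (chr11:108097095-108097327 and chr11:108098220-108098621). In the mz control and knockout libraries the first had 1 and 1 reads and the second 7 and 2 reads. A region of Afdn, which encodes the junction scaffold afadin, fell from 3.75 to 1.02 RPKM (exact binomial test, adjusted p = 0.0424), and a region of Tln2, a talin gene, fell from 5.39 to 1.87 RPKM (exact binomial test, adjusted p = 0.0305). The region in Cdh1, the gene of E-cadherin, did not pass in either series, with 2.94 and 3.59 RPKM and 5.06 and 4.42 RPKM. Nor did those of the Hippo pathway genes Tead1, Wwtr1 and Nf2. The Wwtr1 region had 1.76 and 1.08 RPKM in the mz series and 3.75 and 1.53 RPKM in the inducible series.

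Genes of the cytoskeleton and of small GTPase regulation held 36 regions in 23 of 73 genes, with ratios of 0.542 (0.462 to 0.635) and 0.635 (0.568 to 0.709). There 1 fell in the mz series (2.78%) and 3 in the inducible series (8.33%). The one in the mz series was in Asap2, an Arf GTPase-activating gene, and went from 15.9 to 4.30 RPKM (exact binomial test, adjusted p = 0.0162), with 6.69 and 3.06 RPKM in the pools. Those in the inducible series were in Arhgap32, Dock9 and Vav2. The Dock9 region fell from 4.08 to 1.19 RPKM (exact binomial test, adjusted p = 0.0407) and the Vav2 region from 5.88 to 2.21 RPKM (exact binomial test, adjusted p = 0.0326).

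Early lineage and pluripotency genes held 6 regions in 5 of 46 genes, with ratios of 0.685 (0.458 to 1.03) and 0.836 (0.621 to 1.12). These intervals include 1 in both series. A region of Sox6, an SRY-box transcription factor gene, fell in the inducible series from 2.77 to 0.340 RPKM (exact binomial test, adjusted p = 0.0216) and had 2.94 and 0.359 RPKM, 5 reads and 1 read, in the mz series. The related gene Sox5 held a region with higher knockout values in both, 2.35 and 5.02 RPKM and 2.94 and 4.93 RPKM, that passed in neither. Gata4, a transcription factor of primitive endoderm, held 2 regions, of which the one with more binding had 7.05 and 5.74 RPKM and 2.77 and 3.23 RPKM.

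Nuclear receptors and their cofactors held 11 regions in 9 of 54 genes, with ratios of 0.753 (0.591 to 0.962) and 0.729 (0.605 to 0.876). None fell in the mz series and 3 (27.3%) fell in the inducible series. They were in Esrrg, an orphan receptor gene whose product binds sites much like those of NR5A2 (from 3.43 to 0.681 RPKM, exact binomial test, adjusted p = 0.0239), in Ncoa7, a coactivator gene (from 4.57 to 1.02 RPKM, exact binomial test, adjusted p = 0.0101), and in Nrip1, a corepressor gene (from 2.45 to 0.340 RPKM, exact binomial test, adjusted p = 0.0424). In mz the 3 regions had 2.94 and 2.15 RPKM (Esrrg), 6.46 and 3.59 RPKM (Ncoa7) and 3.52 and 1.43 RPKM (Nrip1). The regions of Nr2c2 and Ppard with the most binding did not pass.

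Chromatin and DNA methylation regulators held 31 regions in 23 of 86 genes. Their mz ratio was 0.671 (0.568 to 0.794). Their inducible ratio was 0.878 (0.780 to 0.989), above the 0.694 of all regions. Of the list's regions 1 fell in the mz series (3.23%) and none in the inducible series. Ash1l, whose region fell in the mz series as given above, is not on the list. The one that fell was in Brd1, which encodes a bromodomain subunit of a histone acetyltransferase complex (chr15:88708924-88709398), from 22.9 to 9.32 RPKM (ratio 0.407, interval 0.238 to 0.686, exact binomial test, adjusted p = 0.0346). The pools had 7.02 and 8.85 RPKM there, a ratio of 1.26 (0.826 to 1.93), and the difference between the series had an unadjusted p of 0.000621 that did not pass adjustment. Brd1's region was also the most strongly bound of this list, at 24.5 RPKM in CUT&RUN. Among the others, Kdm2b had 11.7 and 5.38 RPKM and 4.41 and 4.93 RPKM, and Chd8 had 3.52 and 3.95 RPKM and 3.59 and 4.42 RPKM. The 3 Jarid2 regions and the Dnmt3a region had lower values in both knockouts and did not pass.

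Lipid and sterol metabolism genes held 17 regions in 13 of 88 genes, with ratios of 0.720 (0.579 to 0.897) and 0.651 (0.558 to 0.758). A region of Osbpl3, an oxysterol-binding protein gene, fell from 8.22 to 1.43 RPKM in mz knockouts (exact binomial test, adjusted p = 0.0496), and a region of Mboat2, a lysophospholipid acyltransferase gene, fell from 4.57 to 1.53 RPKM in the treated pool (exact binomial test, adjusted p = 0.0443). The Acacb region, in the gene of the mitochondrial acetyl-CoA carboxylase, had 15.3 and 9.32 RPKM and 5.88 and 5.79 RPKM.

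Genes of growth factor and morphogen signalling held 10 regions in 9 of 75 genes, none of which passed. Their ratios were 0.894 (0.597 to 1.35) and 0.634 (0.509 to 0.787). Gli2, a transcription factor of Hedgehog signalling, had 2.94 and 1.43 RPKM and 6.37 and 2.89 RPKM, and Ror2, a Wnt receptor gene, had 2.35 and 5.74 RPKM and 3.75 and 2.55 RPKM. Genes of mitosis and genome maintenance held 13 regions in 10 of 98 genes with ratios of 0.872 (0.763 to 0.999) and 0.882 (0.797 to 0.976), of which the Sfi1 regions made up most of the signal. Without Sfi1 the ratios were 0.654 (0.466 to 0.919) and 0.710 (0.570 to 0.882). A region of Blm, a DNA helicase gene, fell from 12.9 to 3.23 RPKM in mz knockouts (exact binomial test, adjusted p = 0.0269) and had 4.41 and 3.40 RPKM in the pools. Its CUT&RUN signal was 20.3 RPKM.

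Genes known mainly from other cell types were included for comparison. Synaptic and neuronal genes, which are long and not characteristic of 8-cell embryos, held 45 regions in 31 of 108 genes. Their ratios were 0.511 (0.427 to 0.612) and 0.482 (0.429 to 0.541), and the median log2 ratios were −0.69 and −0.89 against −0.48 over all gene-interior regions. In mz 3 fell (6.67%), in Dpp6, Dscaml1 and Scn8a, and in the inducible series 11 fell (24.4%). The 11 were in Asic2, Cacna1a, Grm5, Immp2l, Nav2, Nrxn3 and Pcdh15 with 1 each, and in Auts2 and Dpp6 with 2 each. Immp2l is on the list although its product is a mitochondrial peptidase, and without its regions 10 of 42 fell. A region of Pcdh15, a protocadherin gene, lay 442 kb from a gene end and fell from 2.29 to 0.170 RPKM, 14 reads to 1 read (ratio 0.0745, interval 0.00176 to 0.489, exact binomial test, adjusted p = 0.0240), with a CUT&RUN signal of 12.2 RPKM. A region of Grm5, a glutamate receptor gene, fell from 4.90 to 1.02 RPKM (exact binomial test, adjusted p = 0.00544) and had 4.70 and 1.08 RPKM in the mz series.

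Of the 45 regions of the synaptic and neuronal list, 29 were at 100 kb or more. At that distance the list had ratios of 0.591 (0.458 to 0.763) and 0.447 (0.382 to 0.521), and nearer an end 0.440 (0.338 to 0.570) and 0.535 (0.447 to 0.639), differences that were not tested. Without Auts2 it had 0.487 and 0.504. The muscle list held 6 regions with ratios of 0.565 (0.315 to 1.01) and 0.716 (0.502 to 1.02), none of which passed. Dysf, whose product repairs muscle membranes, is not on that list. Of its 5 regions 1 fell in mz, from 15.3 to 4.66 RPKM (chr6:84051293-84051552, exact binomial test, adjusted p = 0.0338), and another fell with tamoxifen, from 3.92 to 0.851 RPKM (chr6:84092375-84092990, adjusted p = 0.0177). Of the genes of granulosa and cumulus cells, which surround the oocyte, only Bmpr2 held regions, 2 in number, with ratios of 0.475 (0.150 to 1.43) and 0.576 (0.321 to 1.01). The direction of several lists depended on the scaling. With the median log2 ratio of all regions set to 0, ratios came out above 1 for signalling in mz (1.12), for mitosis in both series (1.09 and 1.12), and with tamoxifen for early lineage (1.07) and chromatin (1.12) genes. With the summed ratio set to 1 they were above 1 in both series for early lineage (1.03 and 1.21), chromatin (1.00 and 1.27), nuclear receptor (1.13 and 1.05) and mitosis (1.31 and 1.27) genes, in mz for signalling (1.34) and lipid (1.08) genes, and with tamoxifen for muscle genes (1.03) and for mitosis without Sfi1 (1.02). Adhesion, cytoskeletal, and synaptic and neuronal genes stayed below 1 under both scalings, as did those of granulosa cells. RNA was not measured, so whether any host is expressed in these embryos was not tested.

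**Figure D5:**
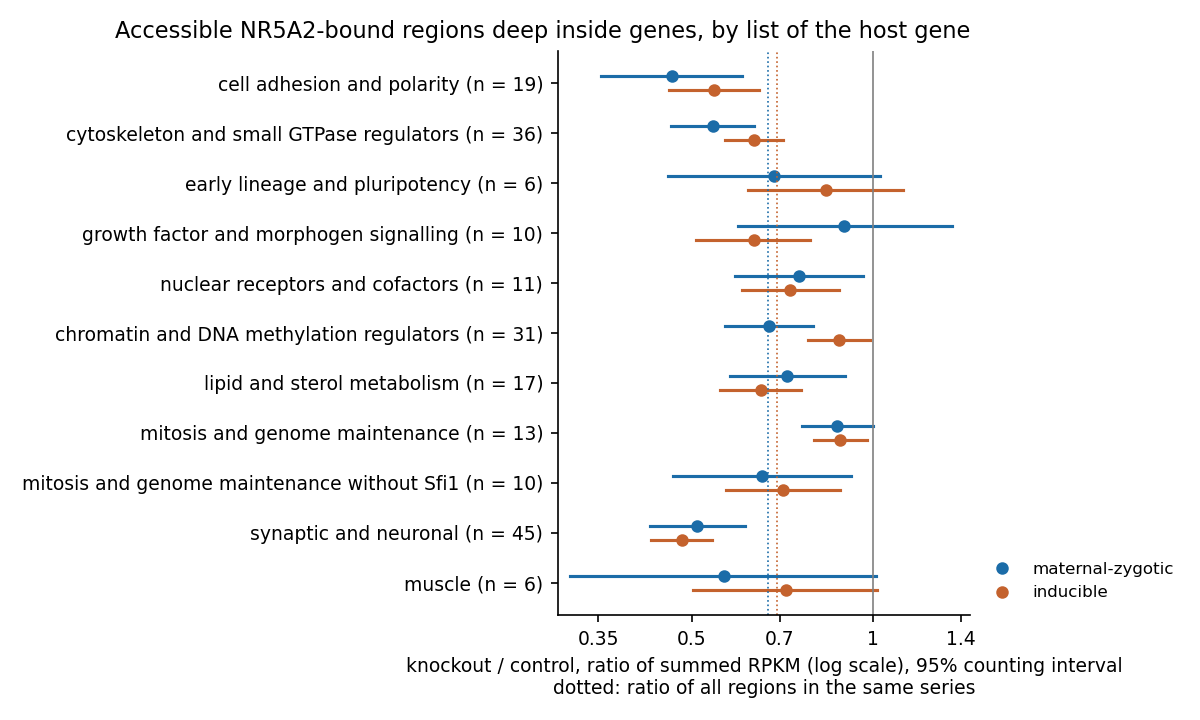
Ratio of summed RPKM, knockout over control, on a log axis, with 95% counting intervals, for gene-interior regions grouped by the list of their host gene (n is the number of regions) in the mz series (blue) and the inducible series (orange). Dotted lines mark all regions at 0.668 and 0.694; adhesion and polarity genes (0.464 and 0.545) and synaptic and neuronal genes (0.511 and 0.482) lie to their left, and chromatin regulators lie at 0.671 and 0.878.

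At the edge of the rule, a region in Trak1, a mitochondrial transport adaptor gene, lay 20.0 kb from a gene end (chr9:121317319-121317694) and went from 7.05 to 1.79 RPKM and from 5.71 to 1.36 RPKM. A region in Rcl1 lay just outside the limit, also at 20.0 kb after rounding, and went from 7.05 to 5.38 RPKM and from 5.55 to 3.57 RPKM.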

How the data were processed

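The authors deposited 1 table of NR5A2-bound regions with 1 merged ATAC-seq RPKM value per group, a CUT&RUN RPKM value from an earlier study, summit positions and classes, per the file headers. The deposited ratio columns, which the authors computed from RPKM, were used to check direction and class only. Cutadapt, Bowtie2, MACS2 and mm10 are named per the submitters' processing notes; versions, transposase shift, duplicate removal and pooling are not given in the sources used here, and duplicates left in would make the intervals too narrow. The deposited RPKM values were whole multiples of 1 step per column, within 0.0001 of a step for 100% of values. In the order mz control, mz knockout, untreated pool and treated pool, 1 read was worth 0.587, 0.359, 0.163 and 0.170 RPKM, so reads were recovered and region length was not divided out. Total reads were 99826, 109296, 285671 and 190091.

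Columns were compared as deposited. For each region the reads entered an exact binomial test, two-sided, and p-values were adjusted (Benjamini-Hochberg) across the whole table of 16958 regions, with 0.05 as threshold. Intervals of summed ratios are exact (Clopper-Pearson, 95%), and classes were compared by Fisher's exact test on summed reads. Log2 ratios used a pseudocount of 1 RPKM. Count models over embryos need values per embryo and were not run. Scripts used Python 3.11.15, numpy 2.4.6, pandas 2.3.3, scipy 1.17.1 and matplotlib 3.10.9 and were tested on simulated data. Gene spans came from a RefSeq table (GRCm38.p6) without strand or exons, and strands and start sequences from a RefSeq promoter table, which covers the chromosomes of 1237 of the 1282 regions.

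The regions, lists and tests were chosen with earlier results of these data known. Regions named were, by rule, the 10 with the smallest p among those lower in each series, all that rose, those lower in both up to 10, the most strongly NR5A2-bound region at up to 3 genes of each list, the hosts with most regions, and regions at the 20 kb limit. 1 region that this rule names is not reported here. Others named (the 11th region lower in both, further list members, the Dysf regions, the Sfi1, Gcnt2, Tle4 and Znrf3 regions, and those shown by sequence), and the lists without Sfi1, Auts2 or Immp2l, were chosen after their values were seen. Each series has 1 label date, so no batch could be separated within it. Alternatives are in the closing section.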

Additional observations from a re-analysis of the deposited data

How the results depend on the processing

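The 2 summed ratios stayed below 1 under each alternative run. With a median of ratios per region the inducible ratio was 0.627, and at 50 kb or more from gene ends it was 0.617. The number of regions that fell in the mz series, 43 as deposited, was 69 at 10 kb, 9 at 50 kb, 65 with at least 10 reads in both columns together, 7 with the median log2 ratio of all regions set to 0, 2 with their summed ratio set to 1, and 8 at an adjusted p under 0.01. In the inducible series 147 became 60 at 50 kb, 34 with the median scaled, 14 with the sum scaled, and 54 at 0.01. The number that rose became 1 in the mz series with the sum scaled, and in the inducible series 2 at 10 kb, 4 with the sum scaled, and 0 at 0.01. The difference to gene ends was −0.15 and −0.26 (log2) as a difference of medians per region, against −0.30 and −0.34 from sums. For 44 of the calls at named regions this was tabulated: 22 kept and 22 lost significance with the median scaled, and 14 kept and 30 lost it with the sum scaled. Further named calls are not among the 44. Those in Auts2, Wwox, Sipa1l3, Dysf, Blm, Brd1, Asap2, Dock9 and Vav2 held under neither scaling. Nor did those in Sox6, Esrrg, Ncoa7, Nrip1, Osbpl3, Mboat2, Pcdh15 and Grm5. Distance limits change the regions counted, and the scalings remove shared loss by construction. No paired analysis was possible because the table holds 1 merged column per group. Leaving out embryos was likewise not possible. Depth limits the mz series most: 844 of the 1282 regions had at least 10 reads over its columns, against 1274 in the inducible series. Open regions that NR5A2 does not bind were not in the table, so whether they lost signal too was not measured.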
